A study of Arabidopsis thaliana with 12 samples.

Results

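The 5 genes described here encode proteins of 3 families that act on RNA or gene expression in chloroplasts and mitochondria. AT3G26630, OTP85 (AT2G02980) and AT4G14050 are pentatricopeptide repeat (PPR) genes. AT5G55580 is a gene of the mTERF family, listed as mTERF9 in the gene table used, and AT4G29750 carries a CRS1/YhbY domain, also called the CRM domain. They were chosen by locus from the single-gene features of an Arabidopsis array, and each had 1 such feature among the 692 features tied to a single gene, of 3439 in all. The choice was made with the difference between the study's groups already known, so their levels in those groups are a description and no p-value is given for them.

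RNA came from 12 samples of Arabidopsis thaliana, ecotype Wassilevskija. In 6 of them the plants were wild type and their roots had been kept for 48 h on MS medium, a standard culture medium for plants, with 100 mM glucose. In the other 6 the plants were kn09, a mutant labelled as hypersensitive to proline and blocked in breaking proline down in mitochondria, kept for 48 h on MS medium with 100 mM proline. Genotype and added compound changed together, so the mutation, proline and glucose cannot be told apart. The mutated gene is not named in the labels, and nothing there tells whether a group's samples are separate plants or cultures. The p-values thus reflect the variation among these 12 samples alone, some of which could be technical.

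PPR proteins are chains of short helical repeats that bind single-stranded RNA. In plants they form a very large family encoded in the nucleus, and most are sent to chloroplasts or mitochondria, where individual members guide the editing, splicing, cleavage or stabilisation of particular transcripts. Proteins of the mTERF family take their name from an animal mitochondrial transcription termination factor and act in plant organelles on transcription, RNA splicing and ribosome assembly. CRM domains are RNA-binding domains known from the maize chloroplast splicing factor CRS1 and the bacterial protein YhbY, and several plant members help to remove group II introns from chloroplast transcripts.

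The array values are linear intensities in the authors' own units, with a floor at 0, and levels of different features are not compared with each other. The highest value was the same in each of the 12 samples, just under 100, and how the scale was set is not stated. Means, SDs and ratios of intensity below use these deposited values without further normalization. Over the samples, the median intensity lay between 0.137 and 0.224, and wild type samples held 175 to 265 features at 0 against 317 to 475 in kn09. Of 30 marker genes of green tissue, 4 were measured, LHB1B2, PSAN, PRK and SBPASE, and their summed intensity ran from 32.5 to 51.5 in wild type and from 5.81 to 8.94 in kn09. Such a sum is weighted towards the brightest of the markers. All 4 markers were above 0 in 10 of the 12 samples and 3 of the 4 fell in limma, beside 13.6% of all features. The part of green tissue in the results below was not tested, and fewer cells of a type cannot be told apart from less RNA per cell. Of 13 root markers 0 were measured, so the labelled root tissue could not be checked. Samples numbered 1 and 2, 3 and 4, and 5 and 6 of a group tended to be alike. In wild type their rank correlations over all features were 0.896 to 0.944 against 0.782 to 0.874 for other samples, and in kn09 they were 0.838 to 0.918 against 0.816 to 0.870, ranges that overlap.

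AT3G26630, AT5G55580 and OTP85 were higher in kn09 on proline, by 2.03 ± 0.20, 1.83 ± 0.25 and 1.68 ± 0.38 (SE) on the normalized log2 scale. AT4G14050 and AT4G29750 were lower in kn09 on proline, with log2 differences of -1.33 ± 0.34 and -2.70 ± 0.81 (SE). These errors treat the 12 samples as independent. On the means of the sample pairs the SE was 0.34 for AT3G26630, 0.38 for AT5G55580, 0.49 for OTP85 and 0.50 for AT4G14050. For AT4G29750 the SE was 0.36 on the pair means but 1.30 with the pairs as a random block. Each of its kn09 pairs joined a sample at the floor with a sample above it. The groups did not overlap for 4 of the 5 genes, AT4G14050 being the exception. Over the array, the groups did not overlap for 18% of the features, and limma called 27.7% of the features at a Benjamini-Hochberg adjusted p under 0.05, with 14.1% higher and 13.6% lower in kn09. Nothing is read from the members' counts against these shares, because the same contrast entered their choice.

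**Figure D1:**
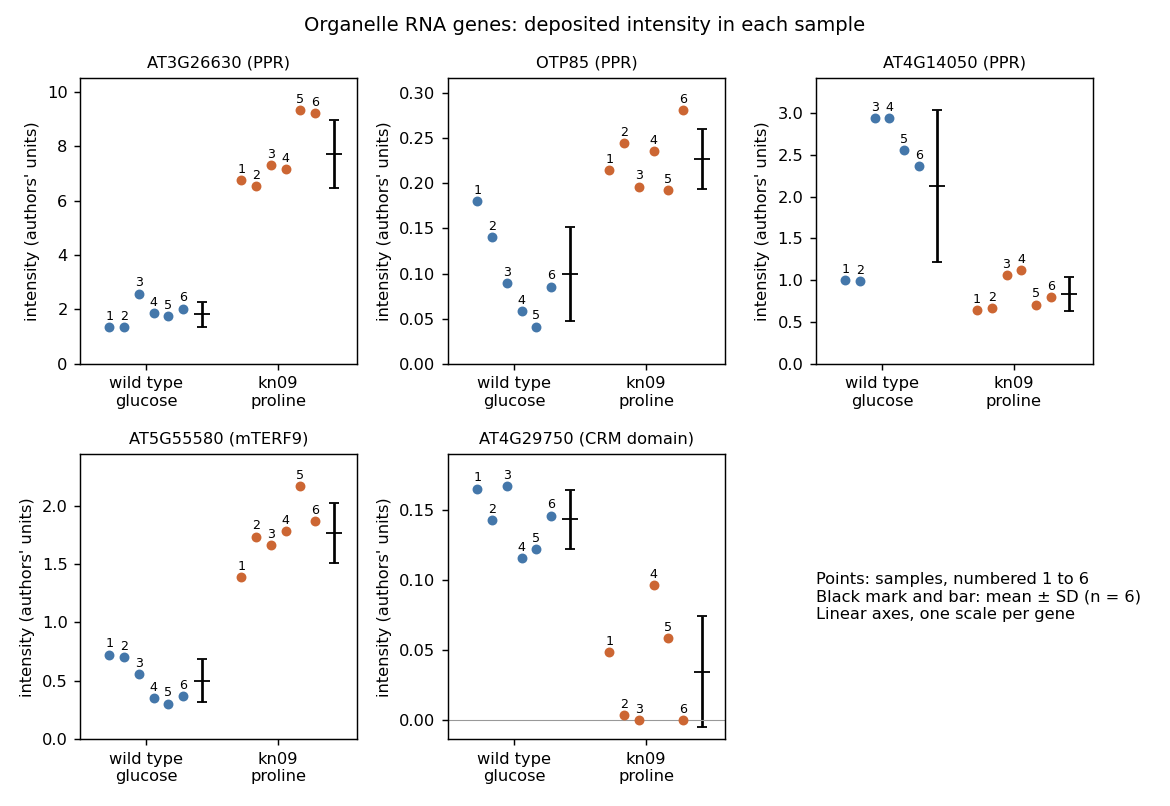
Deposited intensity (linear axes in the authors' units, a separate scale for each gene) of the 5 organelle RNA genes in 6 wild type samples on glucose and 6 kn09 samples on proline, with sample numbers beside the points and black marks for mean ± SD. AT3G26630, OTP85 and AT5G55580 are higher and AT4G29750 lower in every kn09 sample than in any wild type sample, while wild type samples 1 and 2 of AT4G14050 lie among the kn09 samples.

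AT3G26630 had the largest log2 difference of the 3 PPR genes. Its intensity in wild type samples 1 to 6 was 1.36, 1.33, 2.58, 1.86, 1.75 and 2.03. In kn09 samples 1 to 6 it was 6.75, 6.54, 7.29, 7.14, 9.31 and 9.21. The lowest kn09 sample was thus far above the highest wild type sample, wild type sample 3. The wild type mean was 1.82 ± 0.462 and the kn09 mean 7.71 ± 1.23 (SD, n = 6 each), a ratio of 4.24, and kn09 samples 5 and 6 stood above the other 4. The target RNA of the AT3G26630 protein is not stated in the sources used here.

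OTP85 is a chloroplast protein needed for RNA editing, the change of single C bases to U, at a site in the transcript of ndhD, a subunit of the chloroplast NAD(P)H dehydrogenase-like complex. Wild type samples 1 to 6 had OTP85 intensities of 0.180, 0.140, 0.0898, 0.0585, 0.0410 and 0.0855. The kn09 samples 1 to 6 had 0.215, 0.245, 0.196, 0.235, 0.193 and 0.281. The groups did not overlap, but wild type sample 1 came close to kn09 sample 5. Mean intensity was 0.0993 ± 0.0522 for wild type against 0.228 ± 0.0333 for kn09 (SD, n = 6 each), a ratio of 2.29. The spread was wider in wild type, where the coefficient of variation of OTP85 was 52.6% against 14.6% in kn09.

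AT4G14050 was the PPR gene that was lower in kn09. In wild type its intensity was 1.001 and 0.985 in samples 1 and 2, but 2.94, 2.94, 2.55 and 2.37 in samples 3 to 6. In kn09 samples 1 to 6 it was 0.643, 0.669, 1.06, 1.12, 0.707 and 0.799. Wild type samples 1 and 2 therefore stood below kn09 samples 3 and 4, and the other 4 wild type samples stood above all kn09 samples. Mean intensity was 2.13 ± 0.909 for wild type against 0.833 ± 0.207 for kn09 (SD, n = 6 each). The log2 difference of AT4G14050 was -0.41 against wild type samples 1 and 2 alone and -1.80 against wild type samples 3 to 6.

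AT5G55580, mTERF9, acts in chloroplasts, where it is known to bind ribosomal RNA and to take part in ribosome assembly. Its intensity in wild type samples 1 to 6 was 0.726, 0.702, 0.558, 0.355, 0.307 and 0.370. In kn09 samples 1 to 6 it was 1.39, 1.73, 1.66, 1.78, 2.17 and 1.87. Every kn09 sample was above every wild type sample, and kn09 sample 1 was the lowest of its group. Mean intensity was 0.503 ± 0.185 for wild type against 1.77 ± 0.254 for kn09 (SD, n = 6 each), a ratio of 3.51.

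AT4G29750, the gene with the CRM domain, was at or near the floor in part of the kn09 samples. Wild type samples 1 to 6 had intensities of 0.165, 0.143, 0.167, 0.116, 0.122 and 0.146. In kn09 samples 1, 4 and 5 the intensity was 0.0481, 0.0960 and 0.0581, in sample 2 it was 0.00359, and samples 3 and 6 were listed at 0. Samples 2, 3 and 6 were below the floor used for the log2 values, so each kn09 sample pair joined 1 sample at the floor and 1 above it, with gaps within pairs of 3.52, 4.26 and 3.53 on the log2 scale. The log2 difference of AT4G29750 therefore rests on the value given to the floor, and it was -1.55 with a pseudocount in place of the floor and -2.12 with zeros as missing. On the intensity scale the means were 0.143 ± 0.0213 and 0.0343 ± 0.0396 (SD, n = 6 each), and no kn09 sample of AT4G29750 reached the lowest wild type sample.

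Wild type samples 1 and 2 departed from wild type samples 3 to 6 in several of these genes, and not always towards kn09. The kn09 mean of OTP85 lay 0.84 above wild type samples 1 and 2 and 2.10 above samples 3 to 6 on the log2 scale. For AT5G55580 the distances were 1.20 and 2.14. For AT3G26630 the order was the other way, with 2.36 above samples 1 and 2 and 1.87 above samples 3 to 6. For AT4G29750 the values were close, at -2.60 and -2.75, and wild type samples 3 and 4 were the pair nearest kn09. The mean of wild type samples 1 and 2 was nearer to kn09 than that of samples 3 to 6 in 56.9% of all features and in 70.1% of those that passed the threshold.

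**Figure D2:**
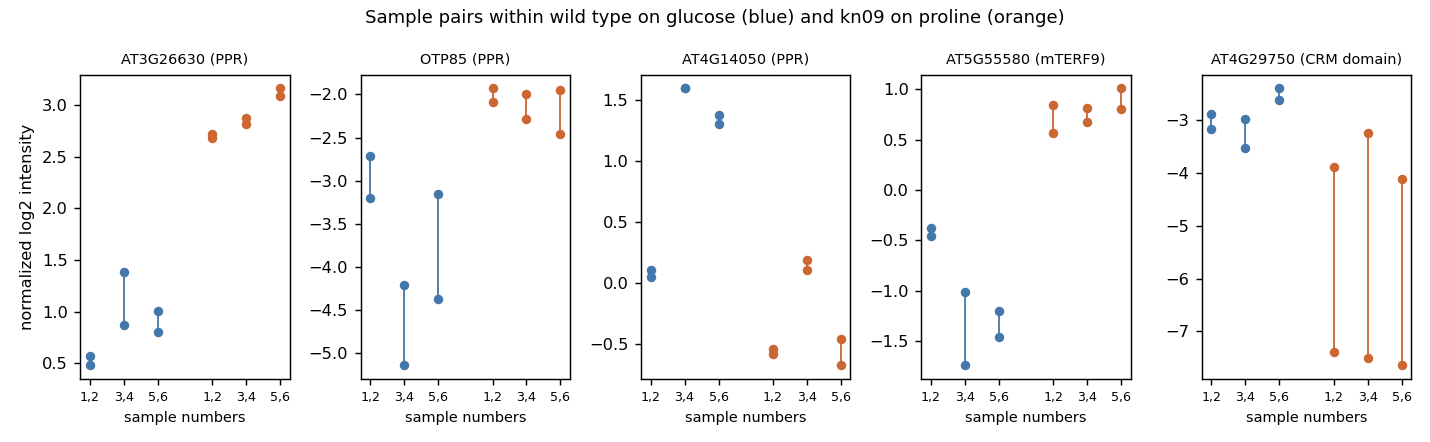
Quantile normalized log2 intensity of the 5 genes in the sample pairs 1 and 2, 3 and 4, and 5 and 6 of wild type on glucose (blue) and kn09 on proline (orange), with a line joining the members of a pair. Wild type samples 1 and 2 are the wild type pair nearest kn09 for OTP85, AT4G14050 and AT5G55580 and the farthest for AT3G26630, and each kn09 pair of AT4G29750 holds 1 sample at the floor.

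The spread within groups also differed. The coefficient of variation was lower in kn09 than in wild type for 4 of the 5 genes, at 16.0% against 25.4% for AT3G26630, 14.4% against 36.7% for AT5G55580 and 24.9% against 42.7% for AT4G14050, with OTP85 as given above. It was higher in kn09 for AT4G29750, at 115.6% against 14.9%. Over the array it was lower in kn09 for 48.7% of the features with a mean above 0 in each group, for 83.1% of the features called higher and for 44.8% of those called lower.

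Deviations of the samples from their group means were set against each other as a description. Over 12 samples OTP85 and AT5G55580 deviated together, with r = 0.78, and AT4G14050 deviated against AT5G55580, with r = -0.79, and against OTP85, with r = -0.66. The samples resemble each other in pairs and are not independent, and much of these values came from wild type samples 1 and 2. Over the 10 samples without them, r was 0.51 for OTP85 and AT5G55580, -0.16 for AT4G14050 and AT5G55580 and -0.18 for AT4G14050 and OTP85. AT3G26630 went from -0.30 to 0.72 with AT5G55580, from 0.57 to -0.06 with AT4G14050 and from -0.42 to 0.05 with OTP85. For AT4G29750 no such value is read, since its deviations are set by the 3 kn09 samples at the floor.

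Further features list some of the same genes together with others. A second feature lists AT3G26630 together with AT2G42920 and cannot be assigned to either. In wild type its lowest, median and highest intensity were 0.0272, 0.0849 and 0.241, and in kn09 they were 0.0810, 0.194 and 0.257. The groups overlapped, and its log2 difference was 1.65 ± 0.59 (SE), the same direction as the single-gene feature of AT3G26630. A second feature that lists AT5G55580 together with AT1G78930 likewise cannot be assigned to either gene. It went the opposite way to the single-gene feature of AT5G55580, with 0.151, 0.212 and 0.449 in wild type and 0, 0.0659 and 0.243 in kn09. Its log2 difference was -2.21 ± 0.83 (SE), and only kn09 sample 4 reached into the wild type range.

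AT5G55570, the protein-coding gene before AT5G55580 in the TAIR10.1 gene table, overlaps AT5G55580 there and has a single-gene feature of its own. It was looked up for its position after the gene names had been read, and none of the other direct neighbours of the 5 genes had such a feature. The lowest, median and highest intensity of AT5G55570 were 0.100, 0.145 and 0.220 in wild type and 0.0137, 0.0424 and 0.0803 in kn09, so the groups did not overlap and AT5G55570 was lower where AT5G55580 was higher. Limma put the log2 difference at -1.59 ± 0.44 (SE), adjusted p = 0.0192. This call of AT5G55570 ended on the means of the sample pairs, at 0.0798, with the pairs as a random block, at 0.115, and with trend and robust settings, at 0.0515. Which strand the features detect is not given in the sources used here, and signal from overlapping genes cannot be told apart without it.

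**Figure D3:**
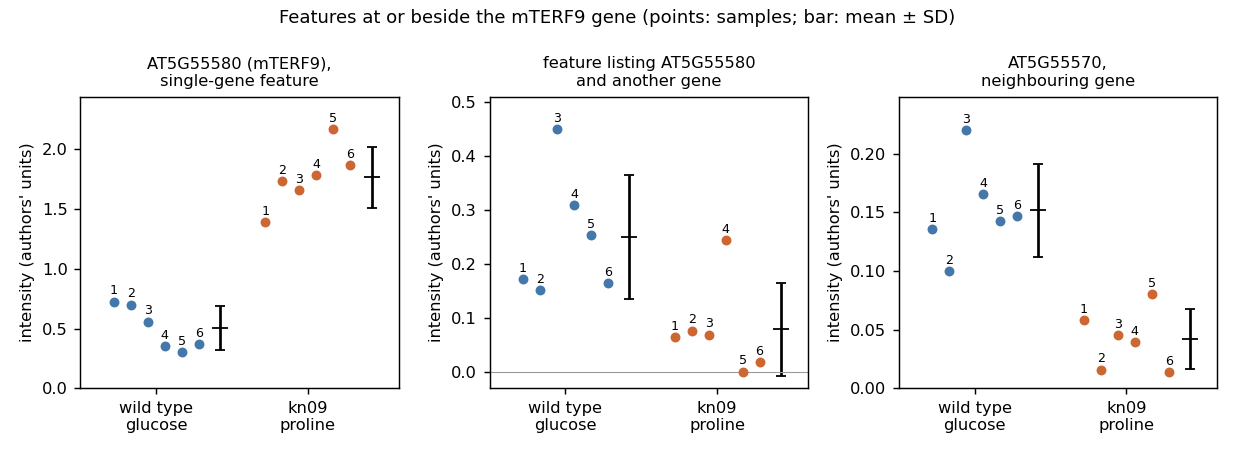
Intensity (linear axes in the authors' units) of the single-gene feature of AT5G55580, of a feature listing AT5G55580 and another gene, and of the overlapping neighbour AT5G55570 in each of 6 wild type and 6 kn09 samples, with mean ± SD in black. The first is higher in all kn09 samples, the second lower in 5 of 6, and the third lower in all 6.

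The other genes of these families were examined on the same array. The list held 28 measured genes, 21 PPR, 6 mTERF and 1 CRM gene, with the 5 described above included. Past the limma threshold were 3 higher and 4 lower genes, 25% of the list, beside 27.7% of all features. The median log2 difference of the list was 0.47, with 19 genes above 0 and 9 below (15 and 13 by mean intensity), beside a median of -0.03 over all features. Without the 5 genes, whose removal lowers the count because they were chosen with their differences known, 0 of 23 rose and 2 fell, 8.70% of them, and the median was 0.43. At an unadjusted p under 0.05 in limma there were 3 of the 23, beside 1352 of 3439 features. When the sample pairs were averaged, 0 of the 23 passed, beside 6.19% of all features. With the pairs as a random block 0 of the 23 rose and 2 fell, beside 18.1% of all features called in either direction. Without wild type samples 1 and 2 the count came to 8 of the 23, with 5 higher and 3 lower, beside 1151 of 3439 features. Without wild type sample 1 it came to 4, with 2 in each direction, beside 987 of 3439 features.

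The 2 genes that fell belong to the mTERF family. AT1G79220 had a lowest, median and highest intensity of 0.473, 1.07 and 1.46 in wild type and of 0.113, 0.298 and 0.371 in kn09, so the groups did not overlap. Limma put its log2 difference at -1.79 ± 0.35 (SE), adjusted p = 0.00261. For AT3G46950 the values were 0.353, 0.631 and 0.880 in wild type and 0.166, 0.279 and 0.371 in kn09, and the highest kn09 sample passed the lowest wild type sample. AT3G46950 fell by 1.16 ± 0.26 (SE) on the log2 scale, with limma's adjusted p = 0.00548. On the pair means AT1G79220 had an adjusted p of 0.0678 and AT3G46950 of 0.116. By group mean both were thus lower in kn09, where the single-gene feature of mTERF9 was higher, a difference between genes that was not tested. The feature that lists mTERF9 together with AT1G78930 was lower in kn09, as given above.

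The remaining mTERF genes did not pass. AT1G62150, with means of 0.680 ± 0.139 and 0.915 ± 0.297 (SD, n = 6 each), differed by 0.35 ± 0.21 (SE) on the log2 scale, with limma's adjusted p = 0.233. AT1G61990 differed by 0.43 ± 0.36 (SE), adjusted p = 0.405 in limma, and by -0.010 without wild type samples 1 and 2. AT1G62010 differed by 1.03 ± 0.96 (SE), adjusted p = 0.466 in limma, but its mean intensity was 0.130 in wild type and 0.107 in kn09. It stood at 0 in wild type sample 6, and the difference was 0.35 without that sample and 0.25 with zeros as missing. These last 3 are members of 1 family with similar sequences, and how far each feature is specific to its gene is not given in the sources used here.

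Of the 21 PPR genes 3 passed in limma, 14.3% of them, beside 27.7% of all features. Leaving out AT3G26630, OTP85 and AT4G14050 lowers such counts, because these 3 were chosen with their differences known. Of the other 18 PPR genes 0 passed. At an unadjusted p under 0.05 there was 1, beside 1352 of 3439 features. Averaged pairs and the random block gave 0 as well, beside 6.19% and 18.1% of all features. Of the log2 differences of these 18 genes 13 were above 0 and 5 below, beside 48.9% above 0 over all features. By mean intensity the split was more even, with 10 higher and 8 lower in kn09. AT3G13150 had a lowest, median and highest intensity of 4.10, 6.08 and 11.1 in wild type and of 5.03, 5.45 and 5.77 in kn09. The kn09 samples of AT3G13150 all lay within the wild type range, differing by -0.34 ± 0.21 (SE) on the log2 scale, with limma's adjusted p = 0.259. Without wild type samples 1 and 2, which were its lowest, AT3G13150 passed at 0.0313 with a difference of -0.58. AT2G19280 went from 0.897 ± 0.317 to 1.32 ± 0.460 (SD, n = 6 each), or by 0.53 ± 0.26 (SE) on the log2 scale, with limma's adjusted p = 0.156.

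The PPR genes AT5G39980 and AT3G22690 had the largest differences among the list's genes that did not pass, and both turned on values at 0. AT5G39980 had 0.450 and 0.458 in wild type samples 1 and 2, 0.0459 and 0.0937 in samples 3 and 4, and 0 in samples 5 and 6, while kn09 ran from 0.0680 to 0.338. It differed by 1.97 ± 1.16 (SE) on the log2 scale, with limma's adjusted p = 0.234. With zeros as missing the difference of AT5G39980 was -0.057, and without wild type samples 1 and 2 it was 3.82, with an adjusted p of 0.00264. AT3G22690, a PPR protein of chloroplast RNA editing, stood at 0 in 3 wild type samples and 1 kn09 sample, differing by 1.65 ± 0.99 (SE) on the log2 scale, with limma's adjusted p = 0.239. Without wild type sample 2, which was its highest, the difference of AT3G22690 was 2.56, with an adjusted p of 0.0145.

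**Figure D4:**
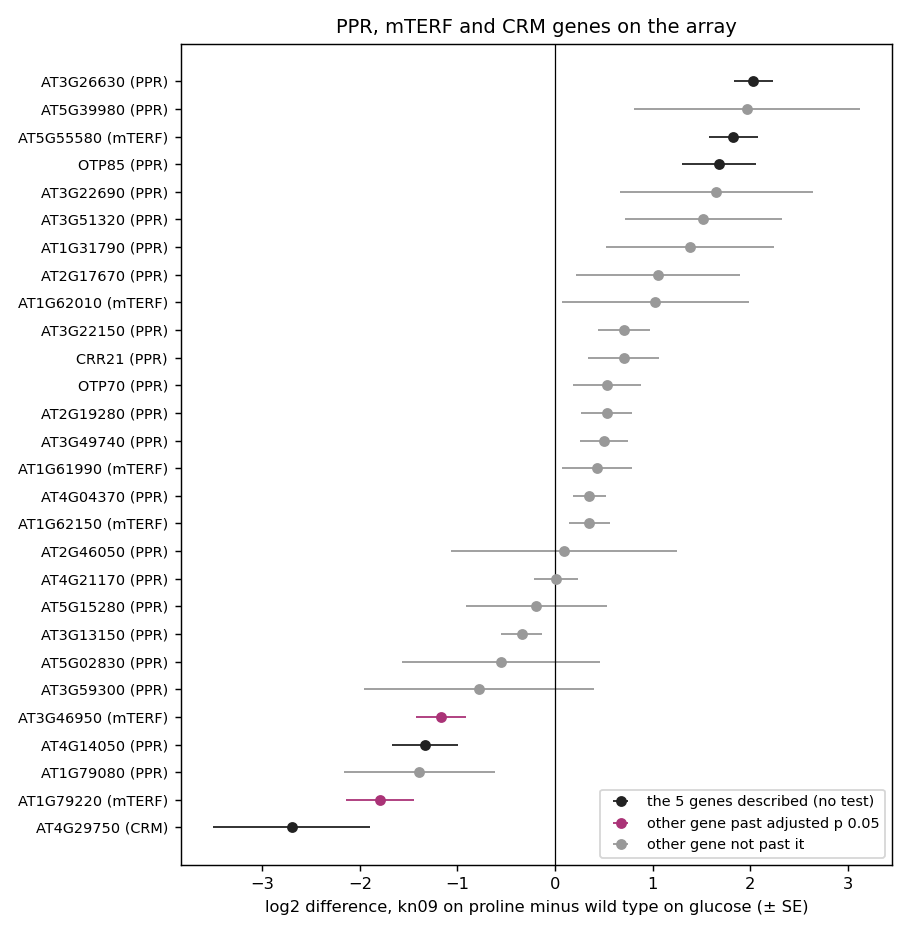
Log2 difference (kn09 on proline minus wild type on glucose, ± SE from limma) of 28 PPR, mTERF and CRM genes, with the 5 genes described in black, other genes past an adjusted p of 0.05 in purple and the rest in grey. The differences run from -2.70 for AT4G29750 to 2.03 for AT3G26630, and the 2 purple genes, AT1G79220 and AT3G46950, are below 0.

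A further 7 genes of organelle RNA binding and processing had 8 features. The genes included PAC, needed for chloroplast development, and ATAB2, which acts in chloroplast translation. These features gave 0 calls in limma, beside 27.7% of all features. There were 2 at an unadjusted p under 0.05, beside 1352 of 3439 features. Neither averaged pairs nor the random block gave any, beside 6.19% and 18.1% of all features. The log2 differences of the 8 features ran from -2.07 to 1.29 with a median of 0.07. PAC itself went from 0.266 ± 0.116 to 0.295 ± 0.0909 (SD, n = 6 each), and ATAB2 had a value of 0 in 4 kn09 samples.

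Patterns like those of the 5 genes were looked for among 513 single-gene features with at most 1 value at 0, by Pearson correlation of normalized log2 values over the 12 samples. The group difference makes up most of such a correlation, so the correlation of deviations from the group means is given beside it. The deviations are part of what the features were chosen by, so a high value there is partly built in. AT5G46560 was most like AT5G55580, with 0.98 over the samples and 0.89 for the deviations, and second most like OTP85, with 0.92 and 0.75. It went from 1.03 ± 0.632 to 5.83 ± 0.639 (SD, n = 6 each). The nearest to OTP85 was AT5G63390, with 0.96 and 0.90. The second for AT5G55580 was AT1G24040, with 0.95 and 0.67.

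AT3G26630 was most like AT2G35390, with 0.97 over the samples and 0.51 for the deviations, and AT1G50880, with 0.95 and 0.35. AT4G14050 was most like AT4G31470, with 0.97 and 0.95, and GLDH, a mitochondrial enzyme that completes the synthesis of ascorbate, with 0.96 and 0.90. AT4G29750 had less close matches, AT2G14660 with 0.82 and 0.67 and AT5G55570 with 0.82 and 0.63. Nothing is read from the deviation values of AT4G29750, since its kn09 samples at the floor set them.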

How the data were processed

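The deposited value table holds 1 intensity per feature and sample, on a linear scale set by the authors. The sources used here do not state its reference, background correction or filters. Groups and sample numbers came from the titles. Features were named through GEO's platform annotation, matched to the TAIR10.1 gene table by Entrez identifier, with 690 of 692 single-gene features matched and 870 features with several genes left unnamed. Values under the 1st percentile of a sample's positive values were raised to it, log2 was taken, and the samples were quantile normalized. Group differences were fitted in limma 3.58.1 under R 4.3.3 (lmFit, eBayes, two-sided, Benjamini-Hochberg over 3439 features). The code was tested on simulated data with independent noise in each sample. That simulation held no sample pairs and no values at the floor, so it does not cover them.

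The members, lists and alternatives were chosen with earlier results of these data known. The tables pair features with names, not descriptions: a search of names for family words found AT5G55580 and, by chance letters, LAS, and of 42 further organelle factors listed by locus 0 were measured. The PPR, mTERF, CRM and organelle RNA lists were therefore assigned by locus from general knowledge after the names had been read. Other genes were named by rule: those past the threshold, the 3 brightest, the 2 largest differences that did not pass, every mTERF gene, and the 2 features most like each member. PAC and ATAB2 were named after their values were seen.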

Additional observations from a re-analysis of the deposited data

Results flagged for a closer look

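For the genes named by rule, each group of 6 values was searched for a single sample standing apart, and 2 of 46 such sets had one, near the 1 in 20 due to chance. In wild type, AT3G22690 reached 0.282 in sample 2, whereas the remaining samples ranged from 0 to 0.0535. In kn09, AT2G14660 reached 0.188 in sample 4, whereas the remaining samples ranged from 0 to 0.0615. None of the 5 organelle RNA genes had a sample of this kind in these sets.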

How the results depend on the processing

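Each of the 5 genes kept its direction and moved by less than the within-group SD under all 23 alternatives. Across them the log2 difference ran from 1.88 to 2.19 for AT3G26630, 1.35 to 2.20 for OTP85, -1.81 to -1.16 for AT4G14050, 1.70 to 2.17 for AT5G55580 and -3.14 to -1.55 for AT4G29750. The median of all features shifted to -0.37 with no normalization, -0.28 with median centring and -0.13 with zeros as missing; relative to it AT4G14050 was at -0.87 without normalization. The count of 954 features past the threshold was 213 on the sample pair means, 87 of them (40.8%) higher against 50.8% in the main fit, and 624 with the pairs as a random block. The family count of 7 was 3 on the pair means and 12 without wild type samples 1 and 2, where 1151 of all features passed. Without the 5 genes the count of 2 became 0 and 8 in these, and ran from 2 to 4 with single samples left out. Reversed were AT5G39980, to -0.057, and AT3G22690, to -0.32, with zeros as missing, and AT1G61990, to -0.010, without wild type samples 1 and 2.

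With the replicate block, which uses the sample numbers shared by the groups, 835 features and 6 family genes passed. Same-numbered samples correlated in their deviations by 0.03 to 0.10, and each sample correlated best with its own number, a hint from the data and not from the labels. The number of arrays and the many values at 0 limit the precision.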
